A study of Mus musculus with 6 samples.

Results

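The genes of microfibrils and elastic fibres were followed in mouse limb cultures through 10 genes, chosen by symbol from the 32286 genes of the count matrices. They were the fibrillins Fbn1 and Fbn2, elastin (Eln), the microfibril-associated proteins Mfap2, Mfap4 and Mfap5, and the latent TGF-beta binding proteins Ltbp1, Ltbp2, Ltbp3 and Ltbp4. All 10 were found, and all 10 passed the filter on low counts in every comparison. The samples were "digits in a dish" (DID) cultures, in which dissociated cells of the distal forelimb mesenchyme reassemble into digit-like structures without an added scaffold. The cells came from E11.5 embryos of the outbred CD-1 strain, no treatment or genetic change is named for any group, and the groups differed in the day of culture. Single-cell RNA sequencing was made from independent cultures on Day 2, Day 7 and Day 10, named replicates A and B, so n = 2 libraries per time point. Limb tissue of several embryos was pooled before plating, so no library stands for a single embryo.

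Fibrillins are long glycoproteins that polymerise outside the cell into microfibrils, which give tissues a stretchable scaffold. Elastin is laid down on these microfibrils as a soluble precursor and is cross-linked there by lysyl oxidases into elastic fibres. The Mfap proteins decorate microfibrils, and the latent TGF-beta binding proteins anchor inactive TGF-beta to the matrix, with Ltbp2 known as the member that does not bind the latent complex. In limbs, microfibrils run through perichondrium, tendon and joint capsule, and human mutations in the fibrillin genes cause Marfan syndrome and congenital contractural arachnodactyly, both with long, slender digits.

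Between 9448 and 16486 cells per library passed the filters, with 178022112 to 260245417 UMIs (unique molecular identifiers, each counting 1 captured RNA molecule) per library. Replicate B of Day 2 stood apart in depth, with a median of 3871 UMIs per cell against 8062 to 24197 in the other libraries and with 41.4% of its cells under 3000 UMIs. Between 24 and 67 cell barcodes were shared by any pair of libraries, at most 0.543% of the smaller library. The 17 chondrocyte markers were detected in every library, and their summed level in CPM, the UMIs of a gene scaled to 1 common library total, was 2703 and 3004 at Day 2, 24956 and 23135 at Day 7, then 14702 and 13595 at Day 10. The 7 markers of distal and interdigital mesenchyme were detected too, at 256 and 257 CPM at Day 2 and 91.3 to 102 CPM later. The summed level of 10 muscle markers was 637 and 495 CPM at Day 2 and 18.9 and 29.5 at Day 10, and 4 of 6 erythroid markers were at 0 after Day 2. The 6 perichondrium markers summed to 1201 and 1225 CPM at Day 2, 4558 and 4246 at Day 7, then 8597 and 7801 at Day 10, and the 8 bone matrix markers to 13.5 and 16.6, 34.4 and 32.7, then 646 and 881. The part of this shift in cell types in the changes over whole cultures was not tested, and the values within chondrocyte-like and other cells are given further on.

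The first question was how each gene changed as the cultures matured. UMIs were summed over the cells of each library, and levels are given as CPM after TMM scaling, a correction for the composition of each library. In such sums, fewer cells of a type and less RNA per cell cannot be told apart. From Day 2 to Day 7, 7 of the 10 genes rose, 1 fell and 2 did not pass the test (edgeR quasi-likelihood test, adjusted p under 0.05). Over all 18987 genes tested, 35.7% rose and 34.6% fell, and the median log2 fold change was 0.01 against 0.75 over the 10 genes. From Day 7 to Day 10, 6 genes rose and 1 fell, beside 26.3% and 25.9% of all genes, and from Day 2 to Day 10, 8 rose and 2 fell, beside 39.0% and 38.2%. The log2 fold changes from Day 2 to Day 10 were 0.86 for Fbn1, -0.56 for Fbn2, 1.38 for Eln, -0.73 for Mfap2, 0.58 for Mfap4, 1.98 for Mfap5, 0.33 for Ltbp1, 3.77 for Ltbp2, 2.01 for Ltbp3 and 1.88 for Ltbp4. The comparisons share libraries with one another, so their values stand side by side and are not independent.

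The plot of levels by library shows how close the replicates lay.

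**Figure D1:**
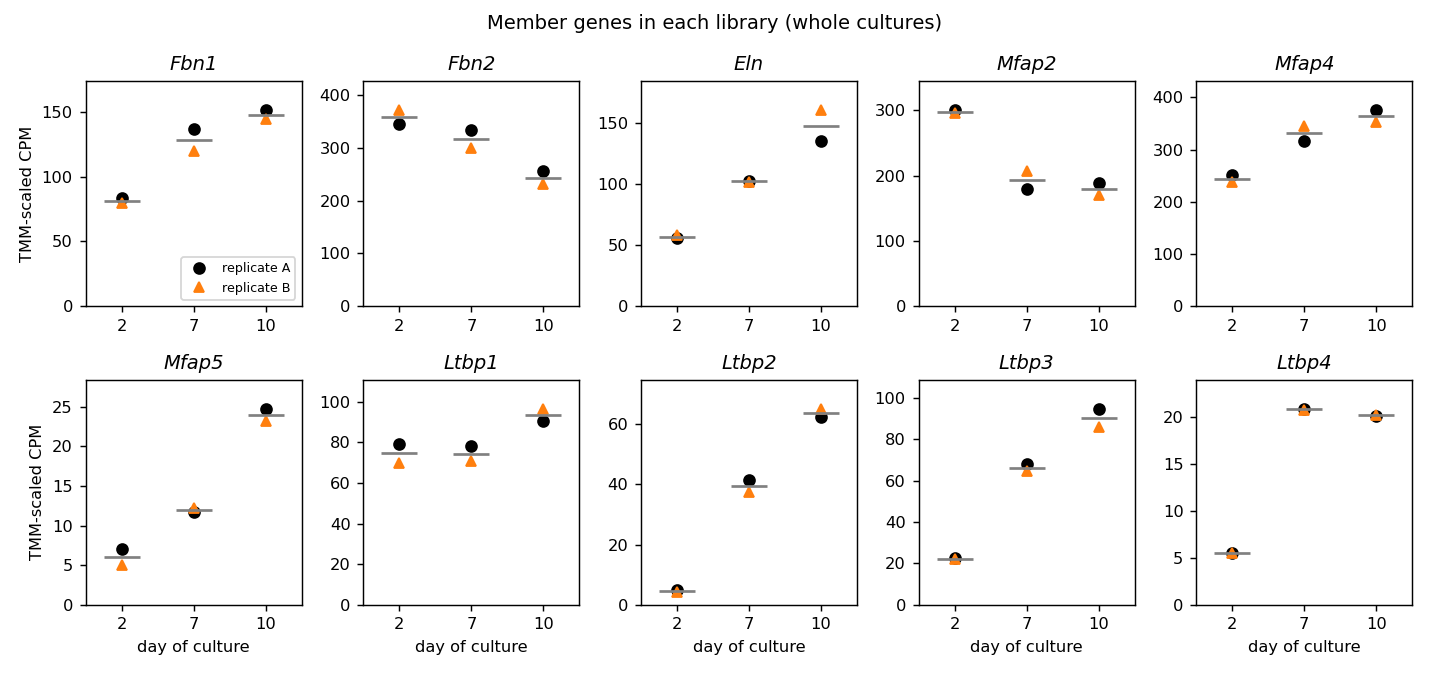
Level of each of the 10 genes in the 6 libraries, as TMM-scaled CPM (y axis, from 0) against the day of culture (x axis). Circles are replicate A, triangles replicate B and grey bars the mean of both; Ltbp2 stood at 5.05 and 4.30 CPM at Day 2 and at 62.4 and 65.0 CPM at Day 10.

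The fibrillins differed in direction. Fbn1 (ENSMUSG00000027204, chr2:125300594-125506485 in GRCm38), the main fibrillin of postnatal tissue, was at 83.3 and 79.5 CPM at Day 2, 137 and 120 at Day 7, then 151 and 144 at Day 10. The libraries of Day 2 lay below all the others, and those of Day 7 below those of Day 10. Fbn1 rose from Day 2 to Day 7 by 0.66 ± 0.07 on the log2 scale (SE, 1.58-fold, adjusted p = 3.23e-05) and from Day 7 to Day 10 by 0.20 ± 0.07 (adjusted p = 0.0332). The second step is the less secure, since without Day 7 replicate B it was 0.12 with an adjusted p of 0.283, without Day 10 replicate A 0.17 with 0.165, and without Day 10 replicate B 0.24 with 0.0652. Fbn2 (ENSMUSG00000024598, chr18:58008623-58210572), the fibrillin known for its high level in embryos, was at 344 and 371 CPM at Day 2, 333 and 300 at Day 7, then 255 and 231 at Day 10. The libraries of the 3 days did not overlap, with Day 10 lowest. Its difference of -0.18 ± 0.08 from Day 2 to Day 7 did not pass the test (adjusted p = 0.0672), but it passed with DESeq2 (-0.19, adjusted p = 0.0202), with all deposited barcodes (-0.25, adjusted p = 0.0233), among cells of at least 3000 UMIs (-0.20, adjusted p = 0.0390) or 10000 UMIs (-0.36, adjusted p = 0.000953) and without Day 2 replicate A (-0.22, adjusted p = 0.0422). Fbn2 fell by 0.38 ± 0.08 on the log2 scale from Day 7 to Day 10 (adjusted p = 0.00368) and by 0.56 from Day 2 to Day 10 (adjusted p = 0.000160).

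Elastin rose in both steps. Eln (ENSMUSG00000029675, chr5:134702595-134747368) was at 55.8 and 58.1 CPM at Day 2, 103 and 102 at Day 7, then 136 and 160 at Day 10, with no overlap between days. The log2 rise was 0.84 ± 0.08 from Day 2 to Day 7 (adjusted p = 1.25e-05) and 0.53 ± 0.08 from Day 7 to Day 10 (adjusted p = 0.000610), which makes 2.60-fold over the whole course.

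The microfibril-associated genes did not move together. Mfap2 (ENSMUSG00000060572, chr4:141010424-141015976), a small fibrillin-binding protein also called MAGP-1, was at 300.0 and 295 CPM at Day 2, 179 and 207 at Day 7, then 189 and 171 at Day 10. It fell by 0.63 ± 0.08 on the log2 scale from Day 2 to Day 7 (adjusted p = 0.000111), while the libraries of Day 7 and Day 10 overlapped and did not differ by the test (-0.10 ± 0.08, adjusted p = 0.310). Mfap4 (ENSMUSG00000042436, chr11:61485431-61488708), a fibrinogen-domain protein that binds elastin and fibrillin, was at 251 and 237 CPM at Day 2, 317 and 346 at Day 7, then 375 and 353 at Day 10. It rose by 0.44 ± 0.07 in the first step (adjusted p = 0.000341), and the second, 0.14 ± 0.07, did not pass (adjusted p = 0.116). Mfap5 (ENSMUSG00000030116, chr6:122513584-122529290), the close relative of Mfap2 also called MAGP-2, was the lowest of the 3 in UMIs. It was at 7.09 and 5.06 CPM at Day 2, 11.7 and 12.2 at Day 7, then 24.7 and 23.2 at Day 10. It rose by 0.97 ± 0.13 and again by 1.002 ± 0.12 on the log2 scale (adjusted p = 0.000146 and 0.000314), 3.94-fold from Day 2 to Day 10.

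Of the latent TGF-beta binding proteins, Ltbp2, Ltbp3 and Ltbp4 rose from Day 2 to Day 7 and Ltbp1 did not change in that step by the test. Ltbp2 (ENSMUSG00000002020, chr12:84783212-84876558) was at 5.05 and 4.30 CPM at Day 2, 41.5 and 37.4 at Day 7, then 62.4 and 65.0 at Day 10. Its log2 rise of 3.08 ± 0.09 from Day 2 to Day 7 (8.43-fold, adjusted p = 1.54e-08) had the largest size of any of the 10 genes in that comparison, and a rise of 0.69 ± 0.08 followed (adjusted p = 0.000190). Ltbp3 (ENSMUSG00000024940, chr19:5740900-5758536), which binds latent TGF-beta in skeletal tissues, was at 22.8 and 22.0 CPM at Day 2, 68.3 and 64.5 at Day 7, then 94.7 and 86.0 at Day 10. It rose by 1.57 ± 0.06 and then by 0.44 ± 0.06 (adjusted p = 9.78e-08 and 0.000497). Ltbp4 (ENSMUSG00000040488, chr7:27305140-27339720), known for its part in elastic fibre assembly, was at 5.48 and 5.51 CPM at Day 2, 20.9 and 20.8 at Day 7, then 20.2 and 20.2 at Day 10. It rose by 1.92 ± 0.05 in the first step (adjusted p = 1.07e-08) and differed by -0.05 ± 0.05 in the second (adjusted p = 0.447). Ltbp1 (ENSMUSG00000001870, chr17:75005480-75392512) was at 79.1 and 70.1 CPM at Day 2, 78.2 and 70.8 at Day 7, then 90.6 and 96.5 at Day 10. It rose only in the second step (0.33 ± 0.07, adjusted p = 0.00632), a call that was lost without Day 7 replicate B (0.26, adjusted p = 0.0584).

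**Figure D2:**
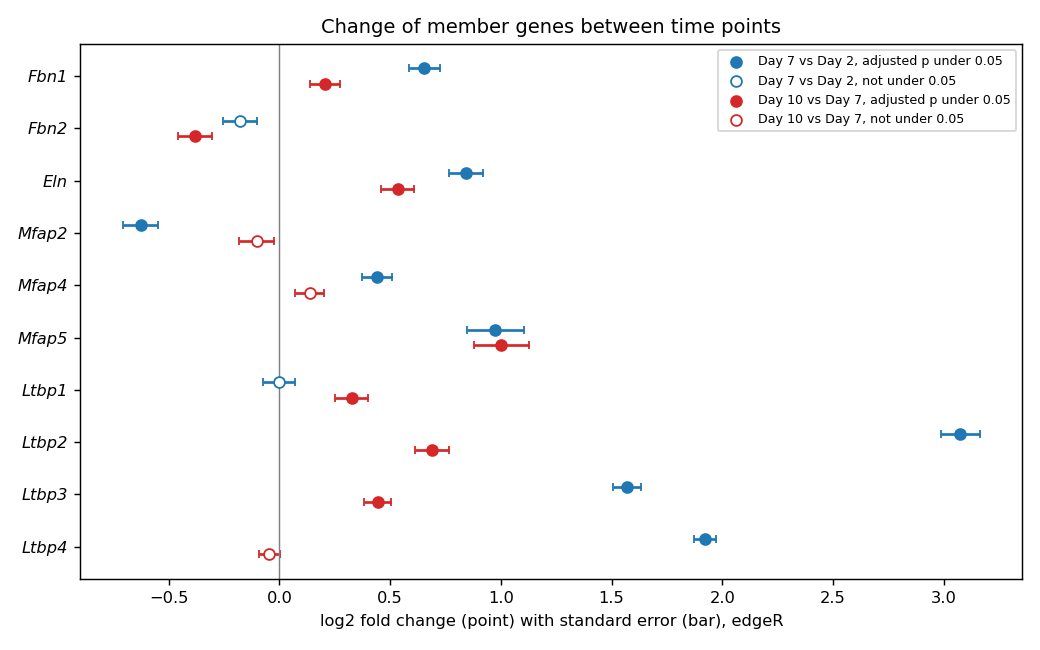
Log2 fold change of each gene (x axis) with its standard error (bars) from Day 2 to Day 7 (blue) and from Day 7 to Day 10 (red), from edgeR. Filled points passed an adjusted p of 0.05; the largest first step is that of Ltbp2, at 3.08, and the genes to the left of 0 in both steps are Fbn2, with its first step open, and Mfap2, with its second step open.

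The scaling matters for small differences. Without TMM factors, the median log2 fold change of all genes was -0.27 from Day 2 to Day 7 and -0.26 from Day 2 to Day 10, and the share of calls that were higher was 33.3% and 36.9% in place of 50.8% and 50.5%. On that scale Ltbp1 fell from Day 2 to Day 7 (by 0.28, adjusted p = 0.00735) and did not differ from Day 2 to Day 10 by the test (0.07, adjusted p = 0.428), and Fbn2 fell from Day 2 to Day 7 (by 0.46, adjusted p = 0.000623). Among cells of at least 10000 UMIs, an alternative chosen after seeing the data, 7 genes rose and 2 fell from Day 2 to Day 7, beside 6705 and 6604 of the 18724 genes tested. The counts from Day 7 to Day 10 were 7 and 1, beside 4942 and 4736 of all, and from Day 2 to Day 10 they were 8 and 2, beside 7364 and 7296.

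Sequence upstream of the start is shown for genes that moved in opposite directions. RefSeq promoter windows of GRCm38.p6 were at hand for 6 of the 10 genes (10 windows, 250 bases before each start). Those of Mfap2 (1 of its 2 windows), which fell, and of Ltbp2 and Ltbp3, which rose, follow as far as they lie outside the gene in both the RefSeq and the GENCODE annotation, read 5′ to 3′ on the strand of the gene. Capitals mark matches, on either strand, to TGANTCA (the AP-1 motif), CAGAC (a SMAD box), GGAATG (the TEAD motif), GGGCGG (a GC box), TATAAA and CCAAT; no printed matches overlap one another.
Mfap2, chr4:141010174-141010417, plus strand: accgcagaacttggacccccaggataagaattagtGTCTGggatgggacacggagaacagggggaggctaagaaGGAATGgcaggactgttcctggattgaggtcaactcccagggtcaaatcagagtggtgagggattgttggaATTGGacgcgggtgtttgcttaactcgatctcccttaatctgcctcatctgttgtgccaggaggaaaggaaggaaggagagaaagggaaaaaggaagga
Ltbp2, chr12:84876559-84876741, minus strand: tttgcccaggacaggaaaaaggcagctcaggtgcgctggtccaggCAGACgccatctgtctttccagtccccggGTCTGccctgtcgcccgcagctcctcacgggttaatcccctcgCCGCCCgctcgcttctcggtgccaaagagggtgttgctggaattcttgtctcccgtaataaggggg
Ltbp3, chr19:5740650-5740899, plus strand: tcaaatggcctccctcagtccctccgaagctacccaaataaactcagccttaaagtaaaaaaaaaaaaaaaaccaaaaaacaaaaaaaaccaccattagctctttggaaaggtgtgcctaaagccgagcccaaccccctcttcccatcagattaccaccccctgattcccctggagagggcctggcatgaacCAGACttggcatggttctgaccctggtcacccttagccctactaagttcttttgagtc
Each of the 3 stretches holds CAGAC, which 42.2% of all 32851 promoter windows also hold. GGAATG, in 12.6% of the windows, was in the Mfap2 stretch, GGGCGG, in 32.7%, in that of Ltbp2, and CCAAT, in 33.9%, in that of Mfap2. TGANTCA (6.75% of all windows) and TATAAA (12.4%) were in none of the 10 windows of these genes. A match of a few letters is a description of the sequence and not a bound site. An antisense RNA gene overlaps the start of Ltbp2 on the opposite strand.

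Fbn2 stayed above Fbn1 in UMIs throughout, but by a smaller margin on each later day. In UMIs, Day 2 replicate A held 79610 of Fbn2 and 19258 of Fbn1, a ratio of 4.13, and replicate B a ratio of 4.66. At Day 7 the ratios were 2.44 and 2.498, and at Day 10 they were 1.69 and 1.60. The mean ratio was 4.40 ± 0.38 (SD, n = 2) at Day 2, 2.47 ± 0.04 at Day 7, then 1.64 ± 0.06 at Day 10, and no libraries overlapped between days. These ratios are a description with no test. The ratio is of captured 3′ ends and serves to compare days, not the molar amounts of the proteins. In chondrocyte-like cells it was 3.32 and 3.56 at Day 2 and 1.63 and 1.58 at Day 10, and in all other cells 4.22 and 4.81 against 1.70 and 1.60. At Day 2 it stood at 8.003 and 8.14 in the interdigital mesenchyme-like cells. At Day 10 the ratio was below 1 only in the contractile mesenchyme-like cells among the named classes, at 0.982 and 0.876.

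**Figure D3:**
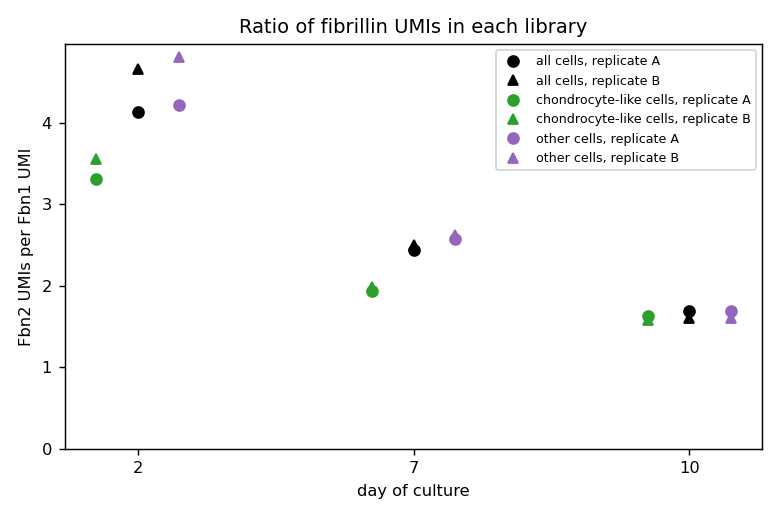
Fbn2 UMIs per Fbn1 UMI (y axis, from 0) against the day of culture, for all cells (black), chondrocyte-like cells (green) and all other cells (purple) of each library, with circles for replicate A and triangles for replicate B. The black points go from 4.13 and 4.66 at Day 2 to 1.69 and 1.60 at Day 10.

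Genes that build, cross-link or bind these fibres were read as a list of 24. From Day 2 to Day 7, 13 of the 24 rose, 7 fell and 4 did not pass the test, with a median log2 fold change of 0.38, beside 35.7% and 34.6% of all genes and an overall median of 0.01. From Day 7 to Day 10, 14 rose and 1 fell, with a median of 0.26, beside 26.3% and 25.9% of all genes. From Day 2 to Day 10, 17 rose and 6 fell, with a median of 0.79, beside 39.0% and 38.2%. Lysyl oxidases, the cross-linking enzymes, were among those that rose. Loxl4 went from 0.606 and 0.565 CPM at Day 2 to 23.6 and 19.4 at Day 7, a log2 rise of 5.19 ± 0.13, and Loxl3 rose by 3.04 ± 0.07. Lox, the founding enzyme of the family, was at 28.4 and 28.8 CPM at Day 2 and at 333 and 295 at Day 10, 10.98-fold higher. Adamtsl4, a secreted protein that binds fibrillin, rose by 3.70 ± 0.16 from Day 2 to Day 7, from a low base of 118 and 68 UMIs. The largest rises from Day 7 to Day 10 were those of Efemp1 (1.93 ± 0.23), a fibulin, of Emilin2 (1.01 ± 0.17), an elastin-interface glycoprotein, and of Fbln5 (0.89 ± 0.06), the fibulin that binds tropoelastin. Efemp1 had fallen by 1.19 on the log2 scale in the first step. Vcan, the large proteoglycan that fibrillin binds, fell from 287 and 254 CPM at Day 2 to 95.7 and 98.5 at Day 7. Adamts17, a secreted protease, fell by 0.84 in the same step. Emilin3 fell by 2.49 from Day 7 to Day 10 and Itgb8, a subunit of an integrin that activates TGF-beta, by 0.51 from Day 2 to Day 10. The counts of Emilin3 were low, with 147 and 185 UMIs at Day 7 and 34 and 38 at Day 10.

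The list of 12 TGF-beta genes moved in both directions. From Day 2 to Day 7, 7 rose and 5 fell, beside 35.7% and 34.6% of all genes. From Day 7 to Day 10, 6 rose and 4 fell, beside 26.3% and 25.9%, and from Day 2 to Day 10, 7 rose and 5 fell, beside 39.0% and 38.2%. Thbs1, which can activate latent TGF-beta, was at 229 and 228 CPM at Day 2, 846 and 771 at Day 7, then 1106 and 1010 at Day 10. Tgfb1, a ligand, rose by 1.05 ± 0.08 and then by 0.62 ± 0.08. Tgfbr3, the co-receptor betaglycan, rose by 2.16 ± 0.08 from Day 2 to Day 7 and fell by 0.55 from Day 7 to Day 10. Tgfbr1, the signalling receptor, fell by 0.78 and again by 0.44. Skil and Smad7, feedback inhibitors of the pathway, fell from Day 2 to Day 7 by 1.13 and 1.08 and then rose by 0.18 and 0.31, and Tgfb2 fell by 0.28 in the second step.

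The next question was whether the cartilage of the cultures carries these genes. Cells were clustered per day with the 10 genes and the 24 partners left out of the features, and clusters named from cartilage markers were called chondrocyte-like. They held 12.03% and 5.22% of the cells of Day 2 (1 cluster), 22.9% and 23.1% at Day 7 (3 clusters) and 25.8% and 26.2% at Day 10 (5 clusters), so different clusters make up the class on different days. Their depth differed from that of the other cells, with medians of 21158 against 3569 UMIs in Day 2 replicate B, and of 25187 and 25154 against 4964 and 6012 in the libraries of Day 7. At Day 7 chondrocyte-like cells held 39.8% and 38.1% of all UMIs, but only 7.97% and 5.96% of those of Ltbp2 and 6.50% and 6.61% of those of Mfap5. For Ltbp4 the share was 32.6% and 30.5%, the highest of the 10 genes.

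At Day 7 all 10 genes were lower in chondrocyte-like cells than in the other cells of the same libraries, beside 36.4% of all genes lower and 34.6% higher. The classes were drawn by clustering the same cells that were tested, so p-values between classes describe these classes. Mfap4 was at 91.6 and 97.0 CPM against 432 and 463, a log2 difference of -2.25 ± 0.04 (adjusted p = 8.89e-14). Mfap5, at 2.14 and 2.40 CPM against 16.7 and 16.9, had the largest difference (-2.89 ± 0.11), followed by Ltbp2 (-2.79 ± 0.08) and Ltbp1 (-2.34 ± 0.05). Ltbp4, at 19.1 and 18.9 CPM against 21.4 and 21.4, had the smallest (-0.17 ± 0.04, adjusted p = 0.00299), a call that DESeq2 did not give (-0.17, adjusted p = 0.0523), and Ltbp3 stood at -0.70 ± 0.03. Fbn1 differed by -0.97 ± 0.04, Fbn2 by -1.38 ± 0.03, Eln by -1.93 ± 0.05 and Mfap2 by -1.49 ± 0.05. At Day 10, 9 genes were lower and Ltbp4 was higher (0.14 ± 0.04, adjusted p = 0.00912), beside 35.4% lower and 34.2% higher among all genes. The lower genes were Fbn1 (-1.06 ± 0.04), Fbn2 (-1.10 ± 0.03), Eln (-1.46 ± 0.05), Mfap2 (-1.74 ± 0.05), Mfap4 (-1.88 ± 0.04), Mfap5 (-2.67 ± 0.09), Ltbp1 (-1.93 ± 0.05), Ltbp2 (-2.18 ± 0.07) and Ltbp3 (-0.52 ± 0.03). The difference of Ltbp4 at Day 10 was 0.04 among cells of at least 10000 UMIs (adjusted p = 0.508), 0.12 by DESeq2 (adjusted p = 0.186) and -0.01 without TMM factors. Without TMM factors, 26.2% of all calls at Day 7, then 37.3% at Day 10 were higher, in place of 48.7% and 49.2%, and 10 and 9 of the 10 genes were lower.

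At Day 2, 8 of the 10 genes were lower in chondrocyte-like cells and none was higher, beside 25.6% lower and 18.4% higher among all genes by the same test. Without TMM factors, 51.9% of all calls were higher in place of 41.8%, and the 8 calls stood. Eln was at 18.4 and 17.1 CPM against 58.9 and 62.4 (-1.77 ± 0.06, adjusted p = 9.74e-11) and Mfap5 at 1.44 and 1.89 against 7.60 and 5.38 (-1.97 ± 0.18). Ltbp1 (-1.11 ± 0.06), Ltbp2 (-1.25 ± 0.18), Mfap4 (-0.50 ± 0.04), Fbn2 (-0.46 ± 0.03), Mfap2 (-0.22 ± 0.05) and Ltbp4 (-0.30 ± 0.08) were lower too, the last without a call by DESeq2 (-0.26, adjusted p = 0.0912). Fbn1, at 73.7 and 78.7 CPM against 82.3 and 78.1, did not differ by the test (-0.08 ± 0.04, adjusted p = 0.150), nor did Ltbp3 (-0.05 ± 0.04, adjusted p = 0.451). The Day 2 class depends on how finely cells are clustered. At 2 times the resolution the chondrocyte-like clusters held 29.1% and 12.4% of the cells, 4 genes were lower, and Mfap2, Mfap4 and Ltbp3 were higher, beside 4862 lower and 3984 higher of the 18197 genes tested.

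**Figure D4:**
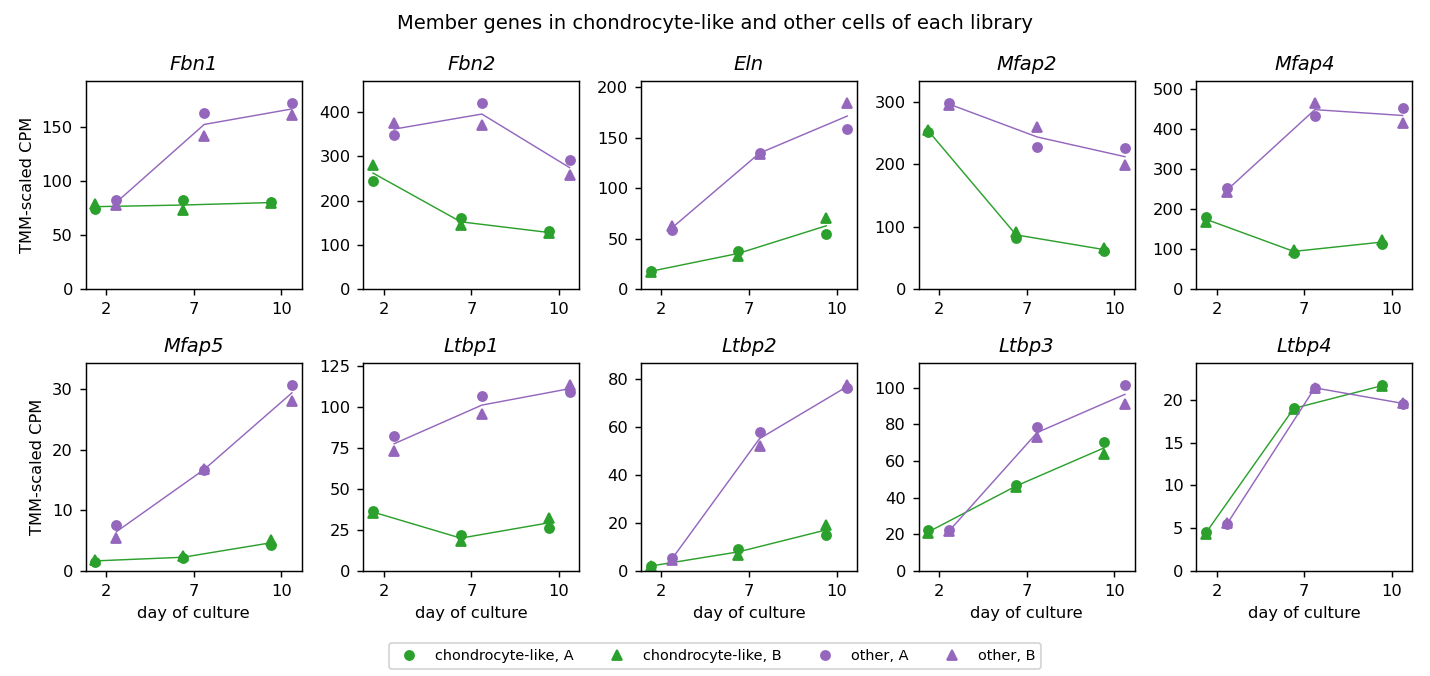
Level of each gene as TMM-scaled CPM (y axis, from 0) in chondrocyte-like cells (green) and all other cells (purple) of each library against the day of culture, with circles for replicate A, triangles for replicate B, lines through the means and the days evenly spaced. At Day 7 the green points lie below the purple ones in every panel, closest for Ltbp4, and in the Mfap2 panel both libraries drop from 253 and 255 CPM at Day 2 to 81.8 and 92.5 in chondrocyte-like cells.

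Within chondrocyte-like cells the course differed from that of the rest. From Day 2 to Day 7, 4 genes rose and 4 fell in them, beside 35.3% of all genes higher and 34.8% lower. In the other cells 8 rose and 1 fell, beside 34.3% and 32.5%. Mfap2, at 253 and 255 CPM at Day 2 in chondrocyte-like cells, was at 81.8 and 92.5 at Day 7, a fall of 1.58 ± 0.07 on the log2 scale (adjusted p = 3.55e-11). Mfap4 fell by 0.93 ± 0.06 in chondrocyte-like cells and rose by 0.87 ± 0.07 in the others. Ltbp1 fell by 0.88 ± 0.10 and rose by 0.40 ± 0.08 respectively, and the rise did not pass at 2 times the resolution (0.14, adjusted p = 0.145). Fbn1 was at 73.7 and 78.7 CPM at Day 2 and 82.7 and 72.8 at Day 7 in chondrocyte-like cells, libraries that overlap (-0.01 ± 0.07, adjusted p = 0.910), and rose by 0.94 ± 0.08 in the other cells. The overlap depends on the scaling. In CPM without TMM scaling, Fbn1 in chondrocyte-like cells was at 87.5 and 94.9 at Day 2, and lower, at 69.3 and 59.5, at Day 7. Changes between days within a class were not tested without TMM factors. Fbn2 fell by 0.82 ± 0.07 in chondrocyte-like cells and had a difference of 0.15 ± 0.08 in the others (adjusted p = 0.150). The gene that fell in the other cells was Mfap2, by 0.26 ± 0.08 (adjusted p = 0.0192), a call lost without Day 2 replicate A (-0.25, adjusted p = 0.0605) and without Day 7 replicate A (-0.17, adjusted p = 0.190). It was also lost with counts merged without integration (-0.12, adjusted p = 0.245), where Fbn2 rose (0.27, adjusted p = 0.0195) and the counts in the other cells were 9 and 0, beside 6341 and 6038 of 18650 genes. Among cells of at least 10000 UMIs the counts were 8 and 0, beside 6335 and 6064 of 18217. Ltbp2, Ltbp3, Ltbp4 and Eln rose in both, Ltbp4 by 2.05 ± 0.09 and 1.98 ± 0.05, Ltbp2 by 1.91 ± 0.22 and 3.51 ± 0.09, and Ltbp3 by 1.08 ± 0.07 and 1.80 ± 0.07. Mfap5 rose by 1.38 ± 0.13 in the other cells and differed by 0.41 ± 0.20 in chondrocyte-like cells (adjusted p = 0.0799). Eln rose by 1.17 ± 0.07 in the other cells, and its rise in chondrocyte-like cells (0.96 ± 0.12) turned at 2 times the resolution into a fall by 0.58 (adjusted p = 5.57e-05). Fbn1 and Mfap5 rose in the chondrocyte-like cells of that setting, by 0.18 (adjusted p = 0.0372) and 0.99 (adjusted p = 0.000123). In it 5 genes rose and 5 fell, beside 5787 and 5939 of 15897 genes. The median over the 10 genes was 0.20 in the main fit, -0.07 with merged counts and -0.20 at 2 times the resolution. At that resolution the Day 2 class is wider and the Day 7 class narrower, with 16.3% and 16.2% of the cells, and their parts were not tested apart.

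From Day 7 to Day 10, 6 genes rose and 2 fell within chondrocyte-like cells, beside 20.5% and 19.6% of all genes. In the other cells 4 rose and 1 fell, beside 28.1% and 26.5%. Ltbp2 went from 9.28 and 6.64 CPM to 15.1 and 19.1 in chondrocyte-like cells (1.07 ± 0.13, adjusted p = 2.75e-05) and from 58.0 and 52.1 to 76.2 and 77.4 in the others (0.48 ± 0.08). Mfap5 rose in both, by 1.01 ± 0.14 and 0.82 ± 0.13, and Eln by 0.79 ± 0.10 and 0.35 ± 0.07. Fbn2 fell in both, by 0.28 ± 0.07 and 0.52 ± 0.08, and its call in chondrocyte-like cells was lost without Day 7 replicate A (-0.20, adjusted p = 0.139) and without Day 10 replicate B (-0.25, adjusted p = 0.0549). Mfap2 fell by 0.48 ± 0.07 in chondrocyte-like cells. Mfap4 rose in them by 0.29 ± 0.06 (adjusted p = 0.00198), and its difference was 0.25 without Day 7 replicate A. The call was lost at 2 times the resolution (0.16, adjusted p = 0.0667) and with counts merged without integration (0.12, adjusted p = 0.153). With merged counts Eln also lost its call in the other cells (0.175, adjusted p = 0.0782). Ltbp1 rose in chondrocyte-like cells by 0.52 ± 0.10 and Ltbp3 in both classes, by 0.51 ± 0.06 and 0.36 ± 0.07. Fbn1 (0.01 and 0.13) and Ltbp4 (0.16 and -0.12) passed in neither class, and Mfap2 (-0.20), Mfap4 (-0.04) and Ltbp1 (0.14) did not pass in the other cells. With counts merged without integration before clustering, 3 genes rose and 4 fell in the other cells, with a median of -0.02 in place of 0.14, beside 4799 and 4507 of the 18650 genes tested. This median was 0.05 without Day 7 replicate B and 0.24 without Day 7 replicate A. At 2 times the resolution it was 0.24 as well, with 6 genes up and 1 down, beside 5029 and 4875 of 18464 genes. At Day 10 the chondrocyte-like levels of 4 genes lay within the range of the immune-like cells, in CPM without TMM scaling. They were 13.1 and 17.1 against 11.7 and 27.1 for Ltbp2, 22.8 and 29.1 against 19.2 and 29.1 for Ltbp1, 3.68 and 4.53 against 2.06 and 7.78 for Mfap5, and 98.3 and 109 against 109 and 69.1 for Mfap4. Whether the differences of these genes between days lie in the chondrocyte-like cells themselves was not tested.

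The named classes of Day 10 differed in their levels of these genes. These levels are CPM of each class and library and are given with no test. Fbn1, Fbn2, Eln and all 4 Ltbp genes stood highest in the perichondrium-like cells, a class named from Thbs2, Col1a1, Postn and other markers but not from the fibrillins. Fbn1 was there at 437 and 341 CPM against 218 and 224 in contractile mesenchyme-like cells and 69.6 and 71.2 in chondrocyte-like cells. Fbn2 was at 907 and 714 CPM, Eln at 483 and 361 and Ltbp2 at 197 and 180. This cluster was also shallow, with medians of 5169 and 4112 UMIs per cell, and mitochondrial genes made up 22.8% of its UMIs on average. Mfap5 was highest in the contractile mesenchyme-like cells (55.1 and 48.8 CPM), which express smooth muscle genes, and in the surface-like mesenchyme (45.3 and 41.8), and low in the bone matrix class (2.14 and 1.61). Mfap4 and Mfap2 were highest among the named classes in the articular-like cells, led by the lubricin gene Prg4, at 658 and 579 CPM and at 287 and 257 CPM. No class of Day 10 carried the tenocyte name, and an unnamed cluster of 1508 and 1300 cells had Tnmd and Scx among its leading genes. All unnamed cells of Day 10 held 586 to 610 CPM of Mfap4 and 298 to 319 of Mfap2. Eln and Mfap4 were low in the surface-like mesenchyme, at 29.0 and 24.5 CPM and at 58.7 and 64.1 CPM, although Fbn2 was at 335 and 326 CPM there. Immune-like cells, which are not known as a source of these matrix genes, held 49.8 and 60.8 CPM of Fbn2, 109 and 69.1 of Mfap4, and 11.7 and 27.1 of Ltbp2. Whether these UMIs come from free RNA, from doublets, which were not removed, or from the cells themselves was not tested.

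**Figure D5:**
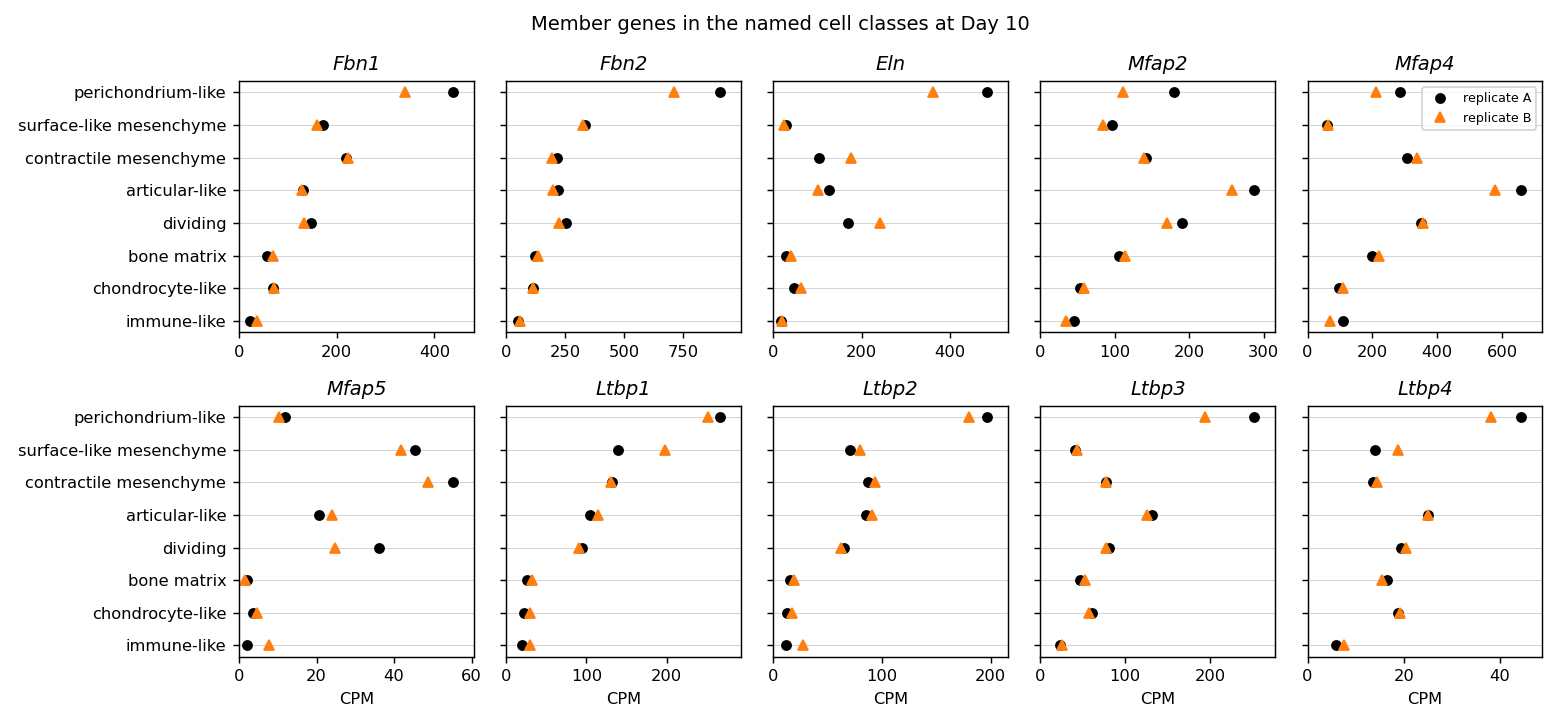
CPM (x axis, from 0) of each gene in 8 named cell classes of Day 10 (y axis), with circles for replicate A and triangles for replicate B. The perichondrium-like class has the highest points for Fbn1, Fbn2, Eln and the Ltbp genes, the articular-like class for Mfap2 and Mfap4, and the contractile mesenchyme class for Mfap5.

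At Day 7 the joint interzone-like and tenocyte-like cells stood out for Mfap4 and Mfap2. Mfap4 was at 998 and 1090 CPM in the joint interzone-like cells, which have the joint gene Gdf5 among their leading genes, and at 1000 and 1019 CPM in the tenocyte-like cells, which express the tendon gene Tnmd, against 76.7 and 79.4 in chondrocyte-like cells. Mfap2 was at 414 and 503 CPM and at 464 and 509 CPM in the same classes. Ltbp4 was highest in the joint interzone-like cells (51.5 and 57.6 CPM). Fbn2 was at 433 and 431 CPM there, and at 683 and 366 CPM in the dividing cells. These join a cluster at 1471 and 852 CPM, with a mean mitochondrial share of 18.9%, and one at 117 and 124. Mfap5 was highest in the contractile mesenchyme-like cells (35.5 and 40.8 CPM), a shallow cluster with medians of 1958 and 1916 UMIs.

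At Day 2 the classes already differed. In the interdigital mesenchyme-like cells, led by Msx1, Fbn1 was at 29.9 and 35.5 CPM and Eln at 10.6 and 12.1, while Mfap2 was at 352 and 356. Ltbp2 was near 0 in them, with 1 and 3 UMIs (0.101 and 0.371 CPM). The contractile mesenchyme-like cells were highest among the named classes for Fbn1 (135 and 130 CPM), Fbn2 (395 and 411), Eln (85.3 and 85.2), Mfap5 (23.6 and 19.8), Ltbp1 (130.2 and 123) and Ltbp2 (10.7 and 11.8). Ltbp4 was highest in the myocyte-like cells (11.98 and 10.9 CPM). This class joins 2 clusters, and the one with 669 of its 857 cells in replicate B held 7.86 CPM of Ltbp4 there, against 11.8 and 11.7 in the other. An unnamed cluster of 462 and 953 cells stood above all named classes for Fbn1 (298 and 167 CPM), Fbn2 (1255 and 886) and Eln (228 and 142). The cluster was also above them for Ltbp1 (224 and 136 CPM), Ltbp3 (69.7 and 41.5) and Mfap4 (339 and 301). Mitochondrial genes led it, with a mean share of 10.7%, and its median depths were 2915 and 3094 UMIs. At Day 7 an unnamed cluster with a mean mitochondrial share of 17.3% held 1156 and 798 CPM of Fbn2 and 318 and 216 of Eln. At Day 10 an unnamed cluster held more Mfap4 (1072 and 1039 CPM) and Mfap2 (536 and 489) than any named class, and another, with median depths of 1322 and 1315 UMIs, held more Mfap5 (61.5 and 105). Unnamed clusters held 60.2% and 71.2% of the cells at Day 2, 60.0% and 53.4% at Day 7, then 29.3% and 27.1% at Day 10. In all unnamed cells of Day 2, Fbn2 (442 and 479 CPM) and Mfap2 (411 and 388) lay above every named class. So did Mfap4 (356 and 331) and Ltbp3 (34.5 and 30.7), and the other genes did not.

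Levels also moved with the mitochondrial share of the clusters. The median share per cell was 1.85% and 2.17% at Day 2, 2.55% and 2.69% at Day 7, then 3.96% and 3.60% at Day 10, and the study's upper limit on it was 25%, 30% and 40% on these days. The part of this shift in the changes between days was not tested. Clusters with a mean mitochondrial share over 10%, a limit set after the values were seen, were compared with the rest of the chondrocyte-like class, with no test. At Day 7 Fbn1 was at 232 and 196 CPM in the chondrocyte-like cluster over this limit and at 60.2 and 53.2 CPM in the rest, and Fbn2 at 455 and 420 CPM against 116 and 104. At Day 10 Fbn2 was at 358 and 269 CPM against 82.5 and 88.9, and Ltbp4 at 49.5 and 41.5 against 14.98 and 15.9. Mfap4 lay closer, at 115 and 100.02 CPM against 74.6 and 78.4 at Day 7 and at 124 and 107 against 95.2 and 109 at Day 10. Over all clusters of Day 10, those over the limit held 664 and 501 CPM of Fbn2 against 208 and 198 in the rest, but 8.49 and 7.09 CPM of Mfap5 against 24.4 and 23.3. The perichondrium-like class held 38.2 to 44.4 CPM of Ltbp4, beside the 49.5 and 41.5 of the chondrocyte-like clusters of Day 10 over the limit. The part of the mitochondrial share in the levels of the perichondrium-like class was not tested.

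Across single cells, most genes were found in a minority of cells at an equal depth of 1000 UMIs, a share that this depth itself limits. Even a gene expressed evenly by all cells, at the whole-culture levels of these genes, would be missed in most cells at this depth. A low share is thus no sign of expression in few cells only, and the shares serve to compare days and classes. Each cell was thinned to 1000 UMIs, and cells with fewer were left out (120 in Day 2 replicate A, 205 and 121 at Day 10, none elsewhere). Fbn2 was then found in 29.4% and 31.8% of cells at Day 2, 32.4% and 26.6% at Day 7, then 23.98% and 22.4% at Day 10. Unthinned, the shares of Fbn2 were 91.2% and 71.9% at Day 2, with median depths of 18587 and 3871 UMIs, and 84.5% and 80.3% at Day 10. In immune-like cells of Day 10, with median depths of 21232 and 21872 UMIs, Fbn2 was found in 1.69% and 4.27% of thinned cells, and in 29.7% and 37.8% unthinned. Fbn1 was found in 8.50% and 7.97% of thinned cells at Day 2 and in 14.3% and 12.9% at Day 10, against 0.848% and 2.44% in immune-like cells of Day 10. Ltbp2 was found in 0.472% and 0.394% at Day 2 and in 6.20% and 6.08% at Day 10, and Mfap5 in 0.440% and 0.607% against 1.65% and 1.64%. Unthinned, the shares were 7.68% and 3.62% against 46.4% and 43.9% for Ltbp2, and 7.53% and 3.67% against 18.3% and 16.9% for Mfap5. Intervals of these shares cover counting error only.

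Cells often held transcripts of several of the genes at once. Thinned to 3000 UMIs, which left out 646 and 6833 cells at Day 2, 4157 and 2907 at Day 7, then 822 and 1088 at Day 10, a cell held on average 2.45 of the 10 genes in both libraries of Day 2, 2.40 and 2.26 at Day 7, then 2.65 and 2.44 at Day 10. The libraries of Day 10 lay on both sides of those of Day 2 in this mean, and those of Day 7 lay below both. Cells with none of the genes were 6.06% and 5.09% at Day 2, 13.1% and 14.7% at Day 7, then 11.8% and 12.9% at Day 10, while cells with 6 or more were 1.05% and 0.559%, 3.51% and 2.90%, and 5.91% and 4.16%. At Day 7, 30.5% and 32.6% of chondrocyte-like cells held none, against 4.56% and 6.98% of the others. Among cells with a Fbn1 UMI, 73.1% and 67.8% of the non-chondrocyte cells of Day 7 also held Fbn2, against 61.9% and 59.3% of those without one. The order was the same in every library and both classes. The gap was smallest in chondrocyte-like cells of Day 2 replicate B, at 57.7% against 57.1%.

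The genes most alike to each member were read from 36 sums per named class and library, as Pearson's correlation of log2(CPM + 1) over 8191 candidate genes. These points share libraries and cell classes, and the values are descriptions. The sums span all 3 days, so a change with the day enters each r, and relations within a day were not tested. Among the members, Fbn1 and Eln were the closest pair (r = 0.84), followed by Eln and Ltbp3 (0.82) and by Ltbp2 and Ltbp3 (0.81). Over the same sums r was -0.06 for Mfap2 and Ltbp2. Ltbp2 was most like Lox (0.94), Postn (0.93) and Fbln5 (0.92), a matrix enzyme, a matrix protein of perichondrium and a fibulin. Mfap2 was most like Fbln1 (0.92), followed by Mylip and Tsc22d1. Fbn1 was most like Lpp (0.92), an actin-linked adhesion protein, Nid1 (0.91), a basement membrane protein, and Tnks1bp1 (0.90). Fbn2 was most like Cyth3 (0.89), Fat4 and Dlg4 (0.87 each), and Eln was most like Nedd9 (0.91), Col12a1 (0.90), a collagen of dense connective tissue, and Igsf10 (0.89). Ltbp1 was most like Lpp (0.88), Kank2 and Vcl (0.87 each), Ltbp3 like Igsf10 (0.93), Atl3 and Casp12 (0.91 each), and Ltbp4 like Podn (0.84), Ogn and Matn2 (0.81 each). Mfap5 was most like Ass1 (0.93), Pdlim1 (0.92) and Gjb2 (0.90), and Mfap4 like Gulp1, Rnd3 and Antxr1 (0.80 each).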

How the data were processed

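Droplet 3′ libraries (10x Genomics v3.1) were made from 6 cultures. The authors aligned reads to GRCm38 (mm10) with STAR, using Cell Ranger 6.1.2. The deposited values are UMI counts per gene and barcode, whole numbers that were not normalized. The study's limits per library on UMIs, genes (above 200 and below 7500), mitochondrial and ribosomal share were applied, and doublets were not removed. UMIs were summed per library, or per library and class, and tested with edgeR 4.0.16 (R 4.3.3; filterByExpr, TMM, quasi-likelihood test, Benjamini-Hochberg adjustment over all genes tested), all 6 libraries in 1 fit, with the library as covariate where classes were compared. DESeq2 1.42.0 was an alternative. Cells were clustered per day with Seurat 5.3.0 (sctransform 0.4.2, 3000 features, 35 dimensions, resolution 0.5, or 0.7 at Day 10). A cluster was named from at least 3 enriched markers with at least 1 among its 10 leading genes, a rule set after those genes had been seen, so names can differ from the study's. For dividing cells, at least 3 genes of a cell-cycle list among those 10 were needed in place of a leading marker. A cluster whose leading genes went against its name stayed unnamed. Tests were checked on simulated counts. Coordinates are from RefSeq annotation of GRCm38.p6. The members and gene lists were chosen with earlier results of these data known. All 10 members are named in every comparison; of the lists, the 3 called genes that rose most and the 3 that fell most, apart from 1 that is not reported here; and 3 genes of like pattern per member, at a mean of 10 CPM or more.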

Additional observations from a re-analysis of the deposited data

Results flagged for a closer look

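The difference between chondrocyte-like and other cells changed with the day for most of the genes, which was tested as an interaction in the same edgeR fit. The change of the log2 difference from Day 2 to Day 7 was -0.89 for Fbn1, -0.91 for Fbn2, -1.26 for Mfap2, -1.74 for Mfap4, -0.92 for Mfap5, -1.23 for Ltbp1, -1.54 for Ltbp2 and -0.66 for Ltbp3, so these 8 genes came to be lower in chondrocyte-like cells relative to the others. From Day 7 to Day 10 it was 0.28 for Fbn2, 0.47 for Eln, 0.36 for Mfap4, 0.41 for Ltbp1, 0.62 for Ltbp2, 0.18 for Ltbp3, 0.32 for Ltbp4 and -0.25 for Mfap2. All 16 adjusted p-values were under 0.05, beside 46.3% of all genes called in the first step and 41.5% in the second, with medians over all genes of 0.04 and 0.07. The others did not pass, with -0.16 for Eln and 0.13 for Ltbp4 in the first step and -0.09 for Fbn1 and 0.22 for Mfap5 in the second. In the second step 7 genes were up and 1 down, against 2 and 2 at 2 times the clustering resolution, with a median over the genes of 0.08 in place of 0.30, beside 2976 up and 3063 down of 18197 genes. Among cells of at least 10000 UMIs, an alternative chosen after seeing the data, 5 were up and 0 down, beside 2920 and 2422 of 17889. The classes are made of different clusters on different days, and at 2 times the clustering resolution the change of Mfap5 from Day 2 to Day 7 was 0.046 (adjusted p = 0.893).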

How the results depend on the processing

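Of 940 results for single genes under the alternatives, not counting the change of the class difference between days, 888 kept their side of the threshold and, where called, their direction, 23 lost a call, 22 gained one and 7 reversed. Clustering at 2 times the resolution, where the chondrocyte-like class was wider at Day 2 and narrower at Day 7, gave 6 of these reversals: against other cells at Day 2, Fbn2 was 0.025, Mfap2 0.17, Mfap4 0.18 and Ltbp3 0.35, within chondrocyte-like cells from Day 2 to Day 7 Fbn1 was 0.18 and Eln -0.58, and outside this count the change of the class difference of Mfap5 from Day 2 to Day 7 was 0.046. The other reversal was without TMM factors, where Ltbp4 at Day 10 was -0.0068 between classes. The ratio of Fbn2 to Fbn1 was 2.33 at Day 7 and 1.54 at Day 10 with all deposited barcodes, and 2.27 and 1.55 among cells of at least 10000 UMIs, an alternative chosen after seeing the data. Leaving out 1 library at a time, for Day 10 versus Day 7 within chondrocyte-like cells, genes called numbered 4251 (without Day 7 replicate A) to 7017, against 6447. The cause was not tested. The letters A and B are not stated to mark a shared origin, and deviations of libraries with the same letter correlated at -0.0164, -0.0574 and -0.00770. With the letter as a replicate block, for Day 7 versus Day 2, whole cultures, genes called numbered 13135, for Day 10 versus Day 7, whole cultures, genes called numbered 9607, and for Day 10 versus Day 2, whole cultures, genes called numbered 14524, and the counts of the 10 genes called were 7 and 1, 6 and 1, and 8 and 2, higher and lower. With 2 libraries per day, p-values rest on a spread shared across days.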
